A study of Homo sapiens with 6 samples.

Results

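The 10 genes described here encode the receptors, binding proteins and enzymes through which cells read and clear retinoic acid (RA), the active form of vitamin A. They were chosen by symbol as retinoic acid receptor, binding and metabolism genes acting upstream of the HOX genes, and all 10 were found among the 47470 genes listed in the count files. They were 3 RA receptors (RARA, RARB and RARG), 2 retinoid X receptors (RXRA and RXRB), 2 cellular RA-binding proteins (CRABP1 and CRABP2), 2 RA-degrading enzymes (CYP26A1 and CYP26B1) and the retinal reductase DHRS3. Of these, 9 were among the 15298 genes with enough reads to be tested, and CRABP1 was listed at 0 in every library.

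The cells were HEK293T, an established line of human embryonic kidney origin with the large T antigen of SV40. There were 3 libraries of untreated cells and 3 of cells kept for 1 day in 1 mM valproic acid (VPA), which blocks histone deacetylases. The labels list the untreated cells as wild type without any agent, and they name no retinoid for either group. Strand-specific mRNA libraries were made from total RNA. The labels number the libraries of each group 1 to 3 but do not say whether they came from separate cultures, so the p-values below measure the spread between these libraries, which may be technical.

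RA is made from retinol by way of retinal, and enters the nucleus, where it binds a RAR paired with a RXR on DNA. Without RA the pair holds corepressors, and with RA it recruits coactivators and drives target genes, among them HOX genes of the embryonic body axis. CRABP proteins bind RA inside the cell. Cells keep RA in check by oxidizing it with CYP26 enzymes and by reducing retinal back to retinol with DHRS3, and several of these genes are themselves RA targets.

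Reads on genes totalled 18622267 to 18828495 per library, so depth was nearly even, and a value below is a normalized read count, the number of reads scaled by TMM normalization to the mean library. The 9 tested genes had means of 106 to 1418.5 normalized counts in either group. Libraries of 1 group differed by more than sampling noise, and each was counted as 1 replicate. Of 10 genes that HEK293T cells are known to express, 8 had at least 100 normalized counts in all 6 libraries. Marker lists of other cell types gave summed levels of 0 to 1.05 (untreated) and 0.958 to 1.93 (VPA) for pluripotent cells, with NANOG, L1TD1, DPPA4 and TDGF1 at 0, and of 52.8 to 64.0 and 43.3 to 60.4 for leukocytes, with none of 5 at 0. The fibroblast list moved with the treatment, from 438–496 to 1500.3–1667 with none of 5 at 0, as did the endothelial list, from 10.4–20.9 to 136–169 with none of 4 at 0, and the part of these lists in the results below was not tested. In RNA from a whole culture, fewer cells that use a gene and less RNA of it per cell cannot be told apart.

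Among the 9 tested genes, 3 rose with VPA (CRABP2, CYP26B1 and RARG), 2 fell (CYP26A1 and RXRB) and 4 did not pass the test (RARA, RARB, RXRA and DHRS3). The test was edgeR's quasi-likelihood test fitted on all 15298 genes, with a gene called at a Benjamini-Hochberg adjusted p under 0.05. By the same rule 32.9% of all tested genes were higher and 30.0% lower, shares near those of the 9 genes. CRABP2 was the 1 gene that also changed by a log2 fold change of at least 1, the threshold of the study, which 12.0% of all tested genes passed upward and 0.503% downward. None of the 9 fell that far. The 9 genes had means between 100 and 1000 normalized counts over both groups, and among the 6422 tested genes of that range 38.9% were higher, 25.4% lower and 8.84% past the study threshold upward. The median log2 fold change was -0.06 for the 9 genes and 0.0058 for all tested genes.

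**Figure D1:**
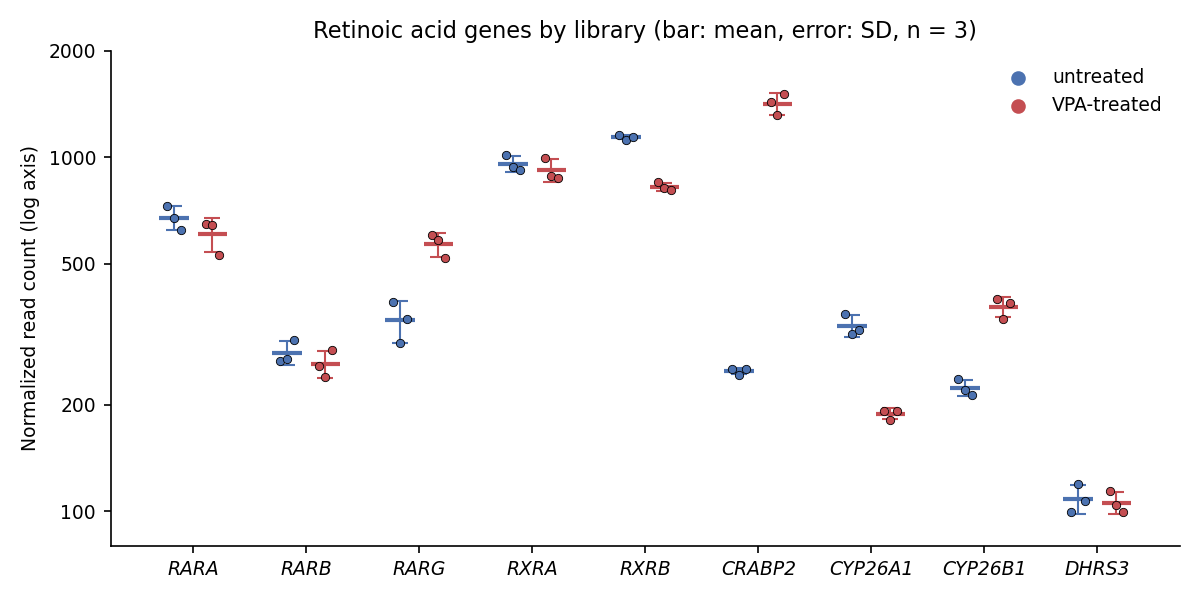
Normalized read counts (log axis) of the 9 detected genes in the 3 untreated (blue) and 3 VPA-treated (red) libraries, with 1 point per library, a bar at the mean and the SD as error. The groups are apart for CRABP2, CYP26B1, RARG, CYP26A1 and RXRB, and overlap for RARA, RARB, RXRA and DHRS3.

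The groups did not overlap for the 5 genes that were called, with the VPA-treated libraries above the untreated ones in 3 genes and below them in 2. Over all tested genes, 34.8% were apart with VPA above and 31.0% with VPA below. The remaining 4 genes overlapped between the groups.

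The RA receptors are the DNA-binding sensors of the pathway, and their 3 genes were all expressed. RARG, on chromosome 12 (53210567 to 53232980, minus strand, GRCh38), had 391, 298 and 349.6 normalized counts in untreated libraries and 603, 585 and 518 in VPA-treated libraries. Every VPA-treated library lay above every untreated one. RARG rose from 346 ± 46.6 to 568 ± 44.7 (SD, n = 3 each), 1.64-fold, a log2 fold change of 0.71 (SE 0.0835, edgeR's adjusted p = 3.31e-07).

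RARA, the broadly expressed RA receptor on chromosome 17 (40309180 to 40357643, plus strand), had 729.9, 672 and 625 normalized counts in untreated libraries and 649.7, 643 and 529 in VPA-treated ones. The groups overlapped, with VPA-treated library 3 lowest. Its mean went from 675.5 ± 52.7 to 608 ± 67.7 (SD, n = 3 each), and its log2 fold change was -0.15 (95% interval -0.31 to 0.0037), which missed the threshold in edgeR's test (adjusted p = 0.0823). The call depended on the fit, since the log2 fold change was -0.21 without untreated replicate 3 (adjusted p = 0.0196), -0.20 without VPA replicate 1 (adjusted p = 0.0345), -0.064 without VPA replicate 3 (adjusted p = 0.456) and -0.175 with no filter on low counts (adjusted p = 0.0141). Of the exon bases of RARA, 11.7% are shared with RARA-AS1 on the opposite strand, which had 3 to 9 counts per library.

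RARB, whose shorter transcript starts at a well-known RA-responsive promoter, lies on chromosome 3 (24687887 to 25597932, plus strand). It had 266, 270.1 and 305 normalized counts in untreated libraries and 257, 239.9 and 286 in VPA-treated ones, with overlapping groups. The log2 fold change was -0.10 (95% interval -0.28 to 0.075, edgeR's adjusted p = 0.304) and changed sign, to 0.028, when libraries were scaled by their totals alone.

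The RXRs pair with the RARs and with many other nuclear receptors. RXRB, on chromosome 6 (33193588 to 33200665, minus strand), had 1157.5, 1122 and 1144 normalized counts in untreated libraries and 851, 819.75 and 808 in VPA-treated ones. The libraries of each group lay close together and the groups were far apart. RXRB fell by 27.6%, from 1141 ± 17.9 to 826 ± 22.2 (SD, n = 3 each), and its log2 fold change was -0.47 (SE 0.0496, edgeR's adjusted p = 4.61e-08). Of its exon bases in GENCODE, 9.26% are shared with SLC39A7 on the opposite strand, and SLC39A7 itself had a log2 fold change of 0.016 (edgeR's adjusted p = 0.796). Whether the counting used strand is not given in the sources used here.

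RXRA, on chromosome 9 (134317098 to 134440585, plus strand), had 1018, 939 and 923 normalized counts in untreated libraries and 997, 886 and 872 in VPA-treated ones. The groups overlapped. Its log2 fold change of -0.06 (95% interval -0.19 to 0.058, edgeR's adjusted p = 0.355) turned to 0.0013 with upper quartile scaling and to 0.067 with library totals.

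The CRABP proteins carry RA inside the cell, CRABP2 handing it to the RARs in the nucleus. CRABP2, on chromosome 1 (156699606 to 156705816, minus strand), had 253, 243 and 252 normalized counts in untreated libraries and 1429, 1315 and 1512 in VPA-treated ones. All 3 VPA-treated libraries lay far above the untreated range. CRABP2 rose from 249 ± 5.45 to 1418.5 ± 98.8 (SD, n = 3 each), 5.69-fold, a log2 fold change of 2.51 (SE 0.0659, edgeR's adjusted p = 1.19e-17). It ranked at 6 among the 15298 tested genes by p and at 364 by log2 fold change. CRABP1, its close relative on chromosome 15 (78340353 to 78348225, plus strand), had 0 counts in all 6 libraries, which allows up to 3 counts per library as the limit of counting error, so no fold change was computed. In GENCODE 45.9% of the exon bases of CRABP1 are shared with ENSG00000279694 on the opposite strand, a name not listed in the count files.

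The CYP26 enzymes oxidize RA and end its signal, and the 2 genes moved in opposite directions. CYP26A1, on chromosome 10 (93073475 to 93077885, plus strand), had 361, 317 and 324 normalized counts in untreated libraries and 193, 181 and 192 in VPA-treated ones. Every VPA-treated library lay below every untreated one. CYP26A1 fell by 43.5%, from 334 ± 23.7 to 189 ± 6.60 (SD, n = 3 each), and its log2 fold change was -0.82 (SE 0.0826, edgeR's adjusted p = 1.89e-08). In GENCODE 25.3% of its exon bases are shared with another gene on the same strand, ENSG00000285846, a name not listed in the count files.

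CYP26B1, on chromosome 2 (72129238 to 72147862, minus strand), had 236, 221 and 213 normalized counts in untreated libraries and 398, 349.7 and 388 in VPA-treated ones. Again no libraries of the groups overlapped. CYP26B1 rose from 223 ± 11.7 to 378 ± 25.3 (SD, n = 3 each), 1.69-fold, a log2 fold change of 0.76 (SE 0.0796, edgeR's adjusted p = 3.61e-08).

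DHRS3, which turns retinal back into retinol and so limits RA formation, lies on chromosome 1 (12567910 to 12618210, minus strand). It had 99.4, 119 and 107 normalized counts in untreated libraries and 114, 104 and 99.6 in VPA-treated ones. The groups overlapped fully, and the log2 fold change of -0.04 (95% interval -0.28 to 0.21, edgeR's adjusted p = 0.805) turned to 0.029 with upper quartile scaling and to 0.095 with library totals.

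**Figure D2:**
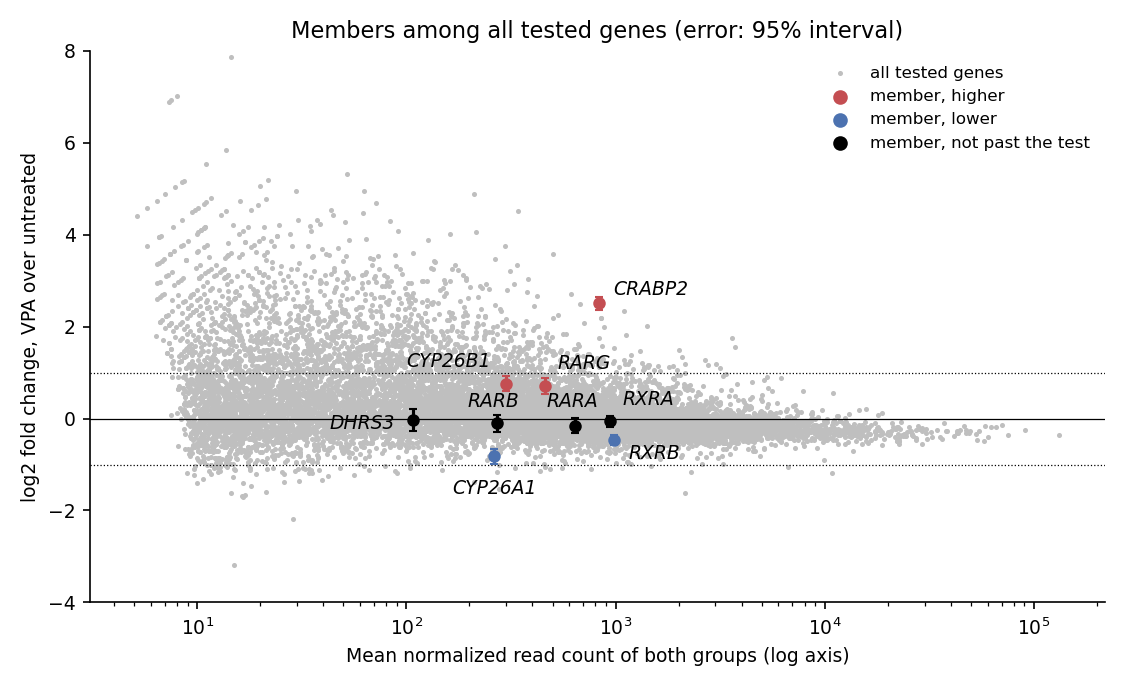
Log2 fold change, VPA over untreated, against the mean normalized read count of both groups (log axis) for all 15298 tested genes (grey). The 9 detected genes are marked (red higher, blue lower, black not past the test), with their 95% intervals as error bars. Dotted lines mark a log2 fold change of 1 in size, and CRABP2 at 2.51 is the 1 marked gene beyond them.

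To compare levels between genes, the counts were divided by the length of the canonical GENCODE transcript, which assumes that transcript is the one made. Per kilobase, RXRB led in untreated cells with 396, followed by CRABP2 with 256 and RARA with 206. RXRA (173) and CYP26A1 (158) overlapped with each other, and RARG (119) and RARB (89.6) came next. DHRS3 (49.3) and CYP26B1 (49.0) stood last and also overlapped. In VPA-treated cells CRABP2 led with 1456, ahead of RXRB with 286. RARG (195), RARA (186) and RXRA (166) overlapped in neighbouring pairs, as did CYP26A1 (89.1), RARB (83.3) and CYP26B1 (83.0), and DHRS3 was lowest with 48.1.

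The make-up of each family was described within each library as the share of the family's summed level per length, which does not depend on how libraries are scaled but does depend on the transcript lengths assumed. RARG held 30.4%, 26.0% and 29.4% of the RAR level in untreated libraries and 42.4%, 42.3% and 41.2% in VPA-treated ones. RARA went the other way, from 50.4%, 52.1% and 46.7% to 40.7%, 41.5% and 37.5%. RARB held 21.7% ± 2.35 and 18.1% ± 2.75 (SD, n = 3 each), with overlapping groups. Per length the RARG share was above that of RARA in all 3 VPA-treated libraries, but in raw reads without length scaling it was below it there too, at 39.5% ± 0.606 against 42.2% ± 2.20 (SD, n = 3 each), so their order after VPA rests on the lengths. In raw reads the RARG share was 26.5% ± 2.19 in untreated libraries, so it was higher with VPA by either measure.

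RXRB held 66.1% ± 0.324 of the RXR level in untreated and 48.6% ± 0.863 in VPA-treated libraries, and RXRA 29.0% ± 1.12 and 28.1% ± 0.821 (SD, n = 3 each). The rest was RXRG, the third RXR, which went from 4.92% ± 0.798 to 23.3% ± 0.150. In raw reads RXRG held 2.68% and 13.4%, RXRB 52.9% and 41.0%, and RXRA 44.4% and 45.5%, which puts RXRA above RXRB after VPA. CYP26A1 held 76.0% ± 0.546 of the CYP26 level in untreated libraries and 51.7% ± 0.910 in VPA-treated ones, while CYP26B1 went from 23.6% ± 0.674 to 48.1% ± 0.792. In raw reads CYP26A1 held 59.7% and 33.3% and CYP26B1 39.9% and 66.6%, so which of them led after VPA also rests on the lengths, while the CYP26A1 share was lower with VPA by either measure. CYP26C1 had 9 counts in all and held under 1% of the level. Of the 9 shares compared, 6 gave an exact two-sided permutation p = 0.1, the smallest that 3 against 3 libraries allow, with a Benjamini-Hochberg adjusted p of 0.15, so this test cannot reach the threshold for a share, and RARB gave an exact p = 0.2, RXRA an exact p = 0.3 and CYP26C1 an exact p = 0.5.

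**Figure D3:**
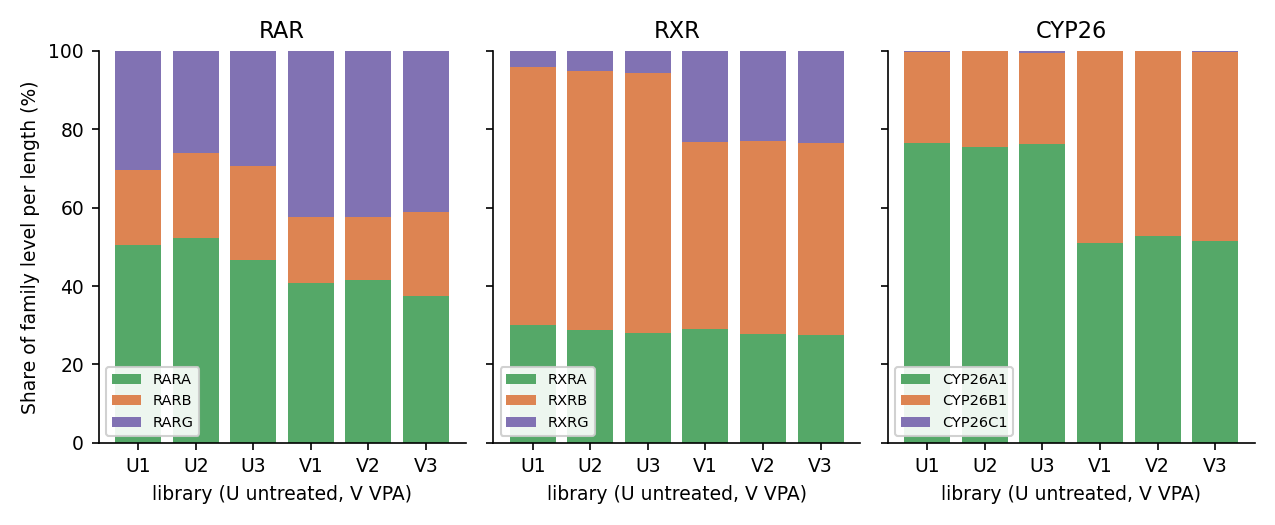
Share of each family's summed level per length (%) in the 3 untreated (U1 to U3) and 3 VPA-treated (V1 to V3) libraries, stacked to 100%. RARG, RXRG and CYP26B1 hold more of their family in each VPA-treated library, and RARA, RXRB and CYP26A1 less.

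The binding site of RAR and RXR pairs is a direct repeat of a hexamer, and such elements are known near the starts of RARB and CYP26A1. The promoter windows of RefSeq (250 bases before to 50 after each start, GRCh38.p14) were searched on both strands for the half-site AGGTCA, the variant AGTTCA, the variant GGGTCA and the variant GGTTCA, with 5 (DR5), 2 (DR2) or 1 (DR1) bases between 2 half-sites. All 10 genes had windows, 20 in total. DR5 was found in 2 of these 20, against 31 of all 35116 windows (0.0883%), 1 in RARB and 1 in CYP26A1. DR1 and DR2 were found in none of the 20, against 0.131% and 0.0399% of all windows, and single half-sites in 9 of 20 against 38.6%. The 30 bases around the 2 DR5 repeats, read on the plus strand with the half-sites in capitals, are shown because they are the 2 matches to the RA response element among these genes.
RARB, chr3:25428204-25428233: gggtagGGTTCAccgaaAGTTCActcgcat
CYP26A1, chr10:93073797-93073826: taaagaTGAACTttgggTGAACTaattgtc
The RARB repeat spans bases -53 to -37 from the start at 25428263. In CYP26A1 the repeat spans -90 to -74 from the start at 93073893 and reads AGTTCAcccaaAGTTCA on the other strand. Both lie in an exon of another GENCODE transcript of the same gene. A match of letters does not show binding, and the 2 genes differed in these libraries, with CYP26A1 fallen and RARB not past the test.

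The other genes of the retinoid pathway were described from a list of 35, of which 24 were tested. Of the 24, 15 rose, 2 fell and 7 did not pass the test, and 12 rose past the study threshold, against 32.9% higher and 30.0% lower among all tested genes. Of the 12 tested genes whose mean was under 100 normalized counts, 10 rose past that threshold, against 29.1% of all tested genes in that range. Of the 12 with a higher mean, 2 did so, against 5.44% of all tested genes there. The part of low counts in these rises was not tested. The list's median log2 fold change was 0.98, against 0.0058 for all tested genes.

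**Figure D4:**
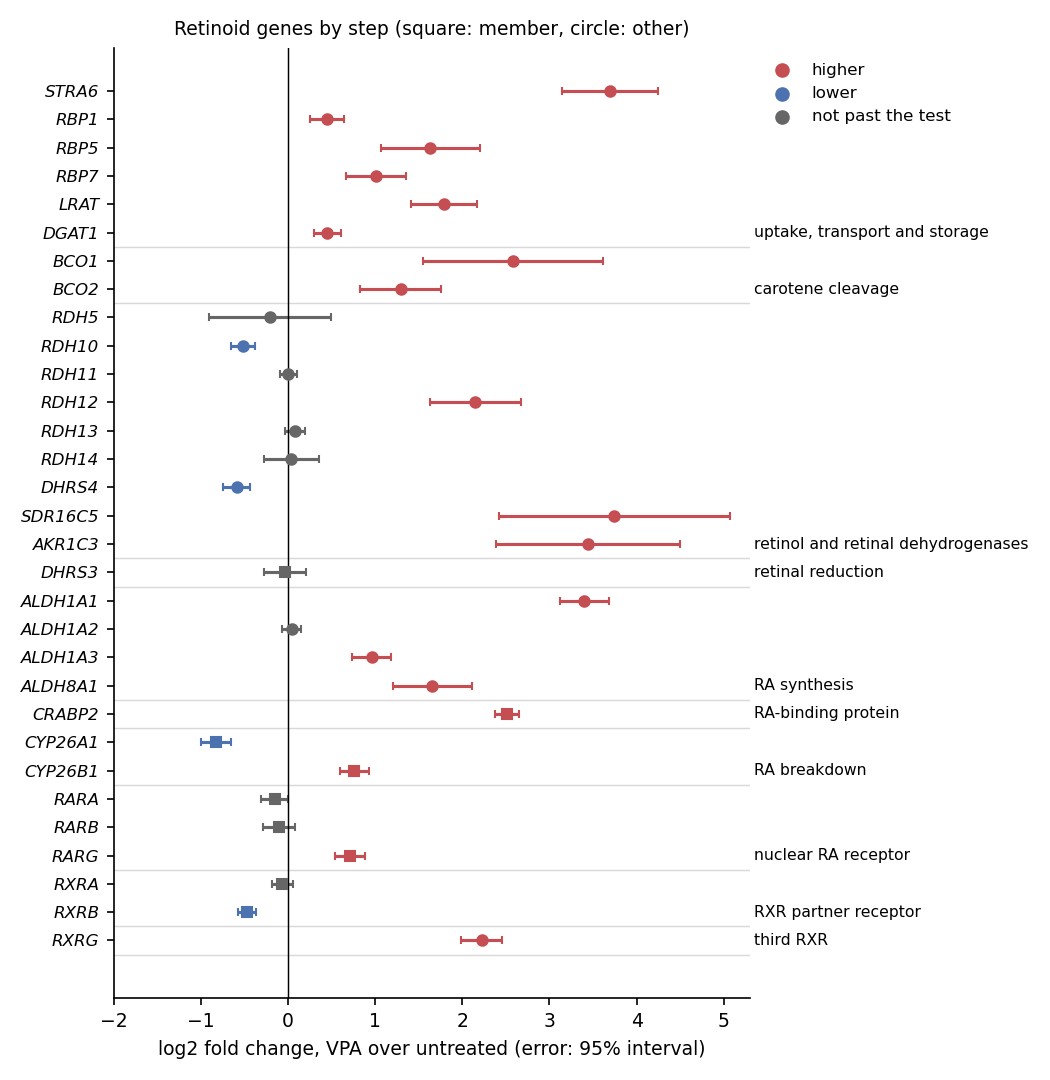
Log2 fold change, VPA over untreated, with 95% interval, of the tested retinoid genes ordered from retinol uptake to the receptors (squares for the 9 detected receptor, binding and metabolism genes, circles for the other pathway genes, red higher, blue lower, grey not past the test). The uptake and storage genes are all to the right of 0, and CYP26A1, RXRB, RDH10 and DHRS4 are the 4 blue symbols. The pathway genes FABP5 and PPARD, which were tested and did not pass, are not drawn.

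All 6 tested genes of retinol uptake, transport and storage rose, against 32.9% of all tested genes. STRA6, the cell-surface receptor that takes up retinol, had 7.25, 3.14 and 6.30 normalized counts in untreated libraries and 81.5, 61.65 and 77.6 in VPA-treated ones, a log2 fold change of 3.69 (SE 0.265, edgeR's adjusted p = 9.03e-11). LRAT, which stores retinol as esters, rose from 26.8 ± 6.97 to 92.8 ± 12.0 (SD, n = 3 each), and its log2 fold change was 1.79. Both STRA6 and LRAT had means under 100 normalized counts, where 29.1% of all tested genes rose past the study threshold. Of 9 tested retinol and retinal dehydrogenases, 3 rose, 2 fell and 4 did not pass, against 32.9% higher and 30.0% lower among all tested genes. RDH10, which makes the retinal used for RA in the embryo, fell from 691 ± 27.4 to 483 ± 37.4 (SD, n = 3 each), and its log2 fold change was -0.52 (edgeR's adjusted p = 4.20e-07). DHRS4 fell by 0.59 on the log2 scale, though its near-identical copies make its count uncertain.

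Of the 4 enzymes listed for RA synthesis, 3 rose, against 32.9% of all tested genes. ALDH1A1 had 28.0, 18.8 and 24.1 normalized counts in untreated libraries and 250.1, 247 and 256 in VPA-treated ones, a log2 fold change of 3.40 (SE 0.136, edgeR's adjusted p = 6.46e-15). ALDH1A3 rose from 99.2 ± 8.37 to 193 ± 15.0 (SD, n = 3 each), and its log2 fold change was 0.96. ALDH1A2, the main RA-making enzyme of the early embryo, had 1854, 2004.5 and 2165 normalized counts in untreated libraries and 1967, 2145 and 2094 in VPA-treated ones. Its groups overlapped and the log2 fold change was 0.04 (edgeR's adjusted p = 0.485), but with library totals it was 0.18 and passed the test (adjusted p = 0.0060). RXRG, with 48.7, 58.6 and 66.1 normalized counts in untreated and 285, 263 and 263 in VPA-treated libraries, rose by 2.22 on the log2 scale (SE 0.114, edgeR's adjusted p = 3.24e-13).

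The coregulators that the receptors recruit had small log2 fold changes. Of 8, 2 were higher and 4 lower (1 lower with library totals), against 32.9% and 30.0% of all tested genes, with a median log2 fold change of -0.09. NCOA2, a coactivator, fell by 0.42 on the log2 scale (edgeR's adjusted p = 2.57e-07) and MED1, which links receptors to the transcription machinery, by 0.22 (edgeR's adjusted p = 5.61e-05), though MED1 did not pass with library totals (-0.088, adjusted p = 0.0535), while the rises of NCOA3 (0.16) and PRAME (0.13) did not pass with DESeq2. NCOR1, a corepressor, was lower by 0.12 on the log2 scale but at 0.016 with library totals. Of the other nuclear receptors that pair with RXR, 10 of 13 were tested, with 5 higher and 3 lower (1 lower with upper quartile scaling or library totals). Among all tested genes 32.9% were higher and 30.0% lower, and the median log2 fold change of the 10 was 0.10. VDR, the vitamin D receptor, rose from 234 ± 15.2 to 521 ± 25.3 (SD, n = 3 each), and its log2 fold change was 1.16 (edgeR's adjusted p = 1.28e-11). It was the 1 of the 10 past the study threshold.

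The listed RA-responsive genes that could be tested did not move in 1 direction. The list held 21 symbols, of which 20 were found (all but RARRES3), 3 of them at 0 and 6 with too few reads to test. RARB and CYP26A1, described above, were not on it. Of 11 tested, 3 rose (TGM2, RET and GBX2), 6 fell (TFAP2A, NR2F1, MEIS2 and NR2F2 the clearest) and 2 did not pass, against 32.9% higher and 30.0% lower among all tested genes, with a median log2 fold change of -0.21. TGM2, which codes for tissue transglutaminase, rose from 67.2 ± 10.9 to 323 ± 4.45 (SD, n = 3 each), and its log2 fold change was 2.26 (edgeR's adjusted p = 8.45e-14). NR2F1 fell from 2039 ± 158 to 1206 ± 40.1 (SD, n = 3 each), and its log2 fold change was -0.76 (edgeR's adjusted p = 6.06e-11). Of 37 tested HOX genes, 28 fell, 3 rose and 6 did not pass, against the same 30.0% lower and 32.9% higher, with a median of -0.69, and HOXB9 fell from 4348 ± 92.6 to 2202 ± 69.6 (SD, n = 3 each), and its log2 fold change was -0.98 (edgeR's adjusted p = 1.21e-14).

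**Figure D5:**
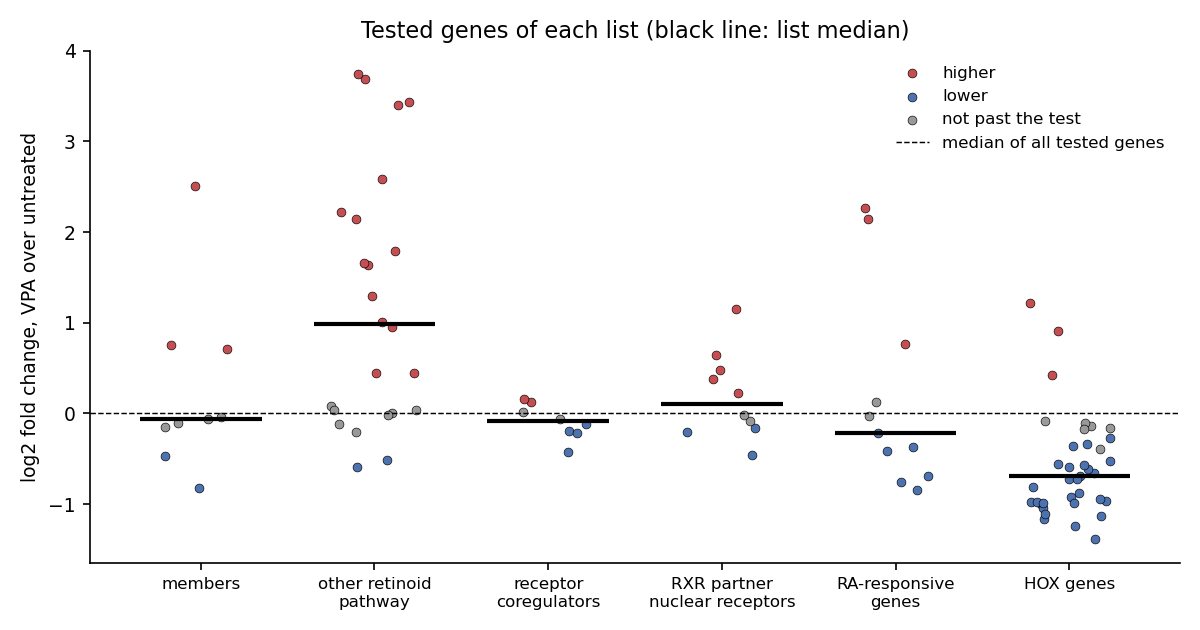
Log2 fold change, VPA over untreated, of each tested gene in 6 lists, with 1 point per gene (red higher, blue lower, grey not past the test), a black line at the list's median and a dashed line at the median of all tested genes. The other retinoid pathway genes centre at 0.98, the 9 detected receptor, binding and metabolism genes at -0.06 and the HOX genes at -0.69.

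For each detected gene, the 2 most similar of 11064 genes averaging at least 100 normalized counts were found by the root mean square distance between profiles over the 6 libraries, on the log2 scale and centred on the untreated mean. For CRABP2 these were SEMA6B (distance 0.074) and TMEFF2 (0.093). The nearest to CYP26A1 were U2AF1L4 (0.035) and ZIC2 (0.037), and to CYP26B1 they were DNAAF3 (0.025) and TMEM205 (0.038). RARG lay nearest to SLC2A6 (0.060) and MATK (0.064), and RXRB to TLE1 (0.013) and LRRC8A (0.017). The other 4 genes were nearest to genes with little change, such as ABCC10 for RXRA (0.011).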

How the data were processed

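Reads were trimmed and cleaned by the authors with SOAPnuke, mapped to hg38 with STAR and counted per gene with htseq-count, and the deposited values are raw counts for each library (the submitters' processing notes give STAR 2.7.10b and HTSeq 2.0.1). The annotation and strand setting of the counting are not given in the sources used here. Reads with several places were not counted, and summary lines that name no gene were left out. Of listed reads, 6.80% to 7.69% overlapped no counted gene feature, 1.97% to 2.10% were ambiguous and 2.81% to 2.92% were not unique.

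edgeR 4.0.16 (R 4.3.3) was run on the counts after filterByExpr (count minimum 10) and TMM normalization, with a robust quasi-likelihood fit, Benjamini-Hochberg adjustment and a prior count of 0.125, over 15298 genes. The biological coefficient of variation was 3.83%. Alternatives were DESeq2 1.42.0, other scalings and filters, a prior count of 2, a replicate block and the omission of each library in turn. The procedure was tested on simulated data. All 10 genes were named, with at most 4 higher and 4 lower genes of smallest adjusted p per other list, RXRG, the ALDH1A genes and CYP26C1, and SLC39A7 was added after its values were seen. Members and lists were chosen with earlier results of these data known. Coordinates and lengths are from GENCODE v44 on GRCh38, and promoter windows from RefSeq on GRCh38.p14.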

Additional observations from a re-analysis of the deposited data

How the results depend on the processing

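The counts of 3 higher, 2 lower and 1 past the study threshold held under every alternative tried, save that RARA added a lower gene without filtering (-0.175, adjusted p = 0.0141), without untreated replicate 3, without VPA replicate 1 and with the replicate block, which gave 3 lower (RARA, adjusted p = 0.00725). Over 14 alternatives the log2 fold change was 2.46 to 2.64 for CRABP2, 0.61 to 0.85 for RARG, 0.72 to 0.89 for CYP26B1, -0.87 to -0.69 for CYP26A1 and -0.49 to -0.33 for RXRB, all called by edgeR and DESeq2. Library totals moved the median of all genes from 0.0058 to 0.14 and the share of higher calls from 52.3% to 73.9%, with 2372 genes lower in place of 4591, and upper quartile scaling gave 0.071 and 63.0%. With these, values near 0 changed sign: RARB to 0.028 (library totals), RXRA to 0.0013 (upper quartile) and 0.067 (library totals), DHRS3 to 0.029 and 0.095, and NCOR1 to 0.016 (library totals). Leaving out each library gave DHRS3 -0.10 to 0.029, with 0.0052 without VPA replicate 3, and ALDH1A2 -0.017 to 0.094, while library totals gave ALDH1A2 0.18 (adjusted p = 0.0060). Requiring at least 10 counts in every library left 17 pathway genes, 9 of them higher, and cut the genes past the study threshold upward from 1833 to 1179. Coregulators higher numbered 0 with DESeq2, 1 without a filter and 0 to 2 when leaving out each library (0 without untreated replicate 2 or VPA replicate 3). Coregulators lower numbered 1 with library totals, and RXR partners lower 1 with upper quartile and with library totals. Where no value shows the cause, the cause was not tested. Deviations of same-numbered libraries correlated at 0.32, 0.087 and 0.24 over 12196 genes, against -0.25 to 0.043 for other pairs, so each correlated best with its own number, a hint from the data and not the design, and as 1 pair lay under 0.1 the numbers were not taken as pairs. The block gave 5357 genes higher and 5100 lower, against 5037 and 4591 without it. Of 615 single-gene comparisons, 578 kept direction and side of the threshold. Depth limits CRABP1, CYP26C1 and other genes with few counts.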

Other observations

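The nearest protein-coding genes in GENCODE that did not overlap each of the 10 genes, 1 on each side, numbered 20. SLC39A7, which overlaps RXRB, was thus left out. Of the 20, 15 were tested, with 7 higher, 7 lower and 1 not past edgeR's test. Among all tested genes 32.9% were higher and 30.0% lower. Named after their values were seen, NES, the gene of the intermediate filament protein nestin, lies 22199 bases from CRABP2 and went from 167 ± 18.6 to 675 ± 10.5 (SD, n = 3 each, normalized counts), higher with VPA by 2.01 on the log2 scale (edgeR's adjusted p = 2.80e-15). On the other side of CRABP2, ISG20L2 fell by 0.20 on the log2 scale. MYOF, 228544 bases from CYP26A1, rose by 2.79 on the log2 scale while CYP26A1 fell. COL5A1, 201218 bases from RXRA, rose by 1.27 while RXRA did not pass the test.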
